A study of Rattus norvegicus with 30 samples.

Results

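The genes described here stood below healthy nerve 7 days after nerve repair and above it 21 days after repair, in tissue regenerating inside a tube. They were chosen from CPM values (each count divided by its library's total and multiplied by 1000000) on a log2(CPM + 1) scale, averaged over the libraries of each group. A gene was kept where its mean lay more than 0.5 below the mean of control nerve at day 7 (a distance below -0.5), and more than 0.75 above it at day 21, after both kinds of repair. There were 32545 genes in all, and 184 of them met these limits. They were ranked by the smaller of their 2 gains from day 7 to day 21, and the 150 highest were taken.

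The samples came from the median nerve, which runs down the forelimb, of adult female rats labelled wild type (WT); the strain is not given in the sources used here. In every repaired animal a cut nerve with an 8 mm gap was joined by a chitosan conduit 10 mm long; chitosan is a polysaccharide derived from chitin. Delayed repair, 3 months after the injury, gave 5, 4 and 3 libraries at days 7, 14 and 21. Immediate repair, with the tube placed at the time of injury, gave 4, 4 and 5 libraries at the same days, and 5 libraries came from healthy nerve without treatment (day 0). Replicates carry numbers, and nothing in the labels ties each to a separate animal. The p-values hence measure only the spread between these libraries, which may be technical. Library totals lay between 11958242 and 17334752 counts.

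A cut peripheral nerve that is bridged by an empty tube first fills with fluid and a fibrin-rich matrix. Fibroblasts, macrophages, blood vessels and Schwann cells, the glia of peripheral nerve, then grow into it from the stumps, and axons follow them. Nerve that has waited a long time before repair is known for Schwann cells that support axon growth less well. Each library comes from bulk tissue, a mixture of cells, so fewer cells of a type and less RNA per cell cannot be told apart. The files identify genes by Ensembl rat gene ID, and no ID matched a symbol in the reference table, so the genes are described by their levels. Their roles, the cell types that express them and the identity of the tissue could not be examined, and no sequence could be tied to them.

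All 150 genes had enough counts to enter the test, among 16015 genes tested. In control nerve their mean level ran from 0.786 to 5190 CPM with a median of 21.8 CPM, where the median of all tested genes was 16.6 CPM. Of the 150, 41 were under 10 CPM and 27 over 100 CPM in control nerve. The smaller gain ran from 1.90 to 6.01 with a median of 2.87 (log2 scale). At the end of the ranking, the last gene taken gained 1.900 and the next one 1.897. Genes next to the limits were separated by little. At delayed day 21, for instance, the nearest values inside the limit were 0.752 and 0.755, and the nearest outside were 0.748 and 0.746. A further 63 genes missed the limit at delayed day 7 alone, 70 that at delayed day 21 alone, 52 that at immediate day 21 alone and 2 that at immediate day 7 alone.

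The choice fixed the signs at days 7 and 21, so the distances at these days are a description. At day 7 the median distance from control over the 150 genes was -1.39 after delayed repair, with a range of -4.69 to -0.53, and -2.01 after immediate repair, with a range of -6.38 to -0.51. At day 21 it was 1.34 after delayed repair (0.76 to 3.62) and 1.41 after immediate repair (0.75 to 3.42). All of these are differences of group means of log2(CPM + 1).

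**Figure D1:**
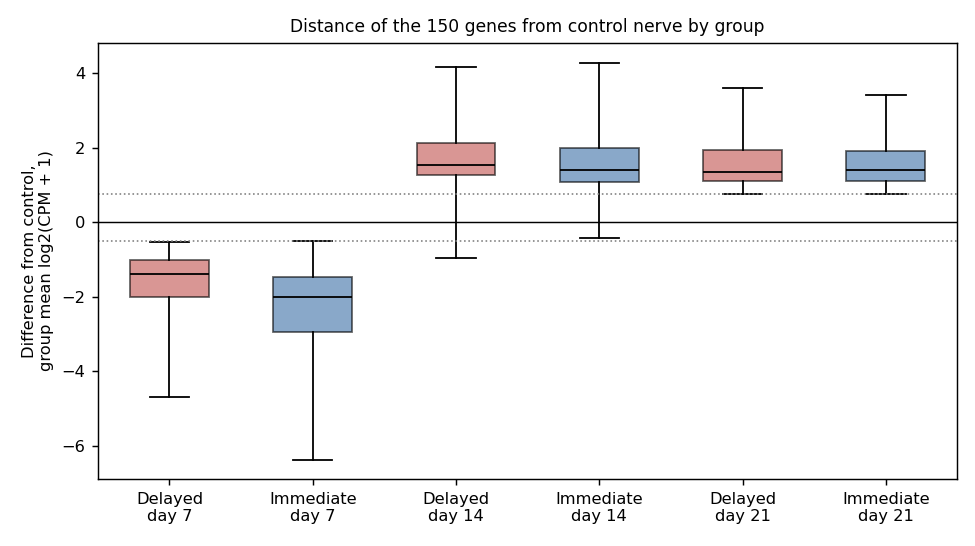
Difference from control nerve in group mean log2(CPM + 1) for the 150 genes, by repair and day; boxes show the median and quartiles, whiskers the lowest and highest gene, and dotted lines the limits of -0.5 and 0.75 used to choose the genes. The day 14 libraries had no part in the choice, and their medians were 1.52 after delayed and 1.39 after immediate repair.

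The low mean at day 7 came from libraries that differed widely from each other. After delayed repair the median log2(CPM + 1) over the genes was 0.76, 1.66, 3.76, 3.95 and 4.08 in replicates 1 to 5, against 4.27 to 4.60 in the 5 control libraries. After immediate repair it was 3.69, 2.42, 1.54 and 0.32 in replicates 1 to 4. Delayed replicates 3, 4 and 5 and immediate replicate 1 thus lay just under the control libraries, and delayed replicates 1 and 2 and immediate replicates 2, 3 and 4 far under them. Expressed as distance from control, the gene medians were -3.41 and -2.45 in delayed replicates 1 and 2, and -0.57, -0.72 and -0.46 in replicates 3, 4 and 5. In immediate repair they were -0.52, -1.71, -2.36 and -3.41. Scaling the libraries with TMM factors in place of their totals gave -3.40 to -0.46 and -3.45 to -0.55 for delayed and immediate repair, so the gap between libraries was of the same size.

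Counted gene by gene, 149 of the 150 were below every control library in delayed replicates 1 and 2 and in immediate replicates 3 and 4, as were 140 in immediate replicate 2. Of all tested genes 41.7% to 47.7% lay below every control library in these 5 libraries. In delayed replicates 3, 4 and 5 and immediate replicate 1 the count was 91, 95, 80 and 82, where 38.9%, 40.7%, 39.7% and 39.0% of all tested genes did so. In those same libraries 19, 17, 21 and 34 genes were above every control library, against 40.7%, 37.8%, 36.6% and 39.0% of all tested genes. Each of the 150 genes lay below all control libraries in at least 1 day 7 library of each repair, which the limit on the day 7 mean favours. The share of all tested genes for which this held was not counted. Every delayed day 7 library was below every control library for 48 of the 150 genes (32.0%), where the share over all tested genes was 26.7%. After immediate repair this held for 80 genes (53.3%), against 31.4% of all tested genes. For 38 genes all 9 day 7 libraries lay below all control libraries, which held for 24.6% of all tested genes. Since the rule used these libraries, nothing is read from these shares beyond the overlap itself: "low at day 7" held for the mean of the libraries, and for most of the genes not for every library. On the plain CPM scale, 3 genes at delayed day 7 and 4 at immediate day 7 had a mean above the control mean.

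**Figure D2:**
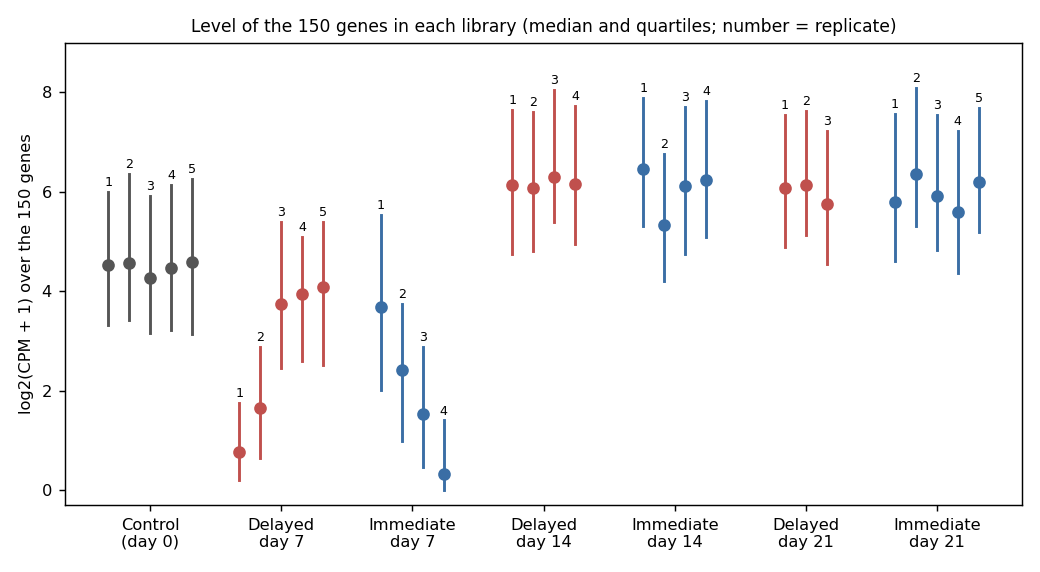
Median (points) and quartiles (lines) of log2(CPM + 1) over the 150 genes in each of the 30 libraries, with replicate numbers above. Day 7 medians span 0.76 to 4.08 after delayed and 0.32 to 3.69 after immediate repair, while those of days 14 and 21 span 5.33 to 6.46.

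**Figure D3:**
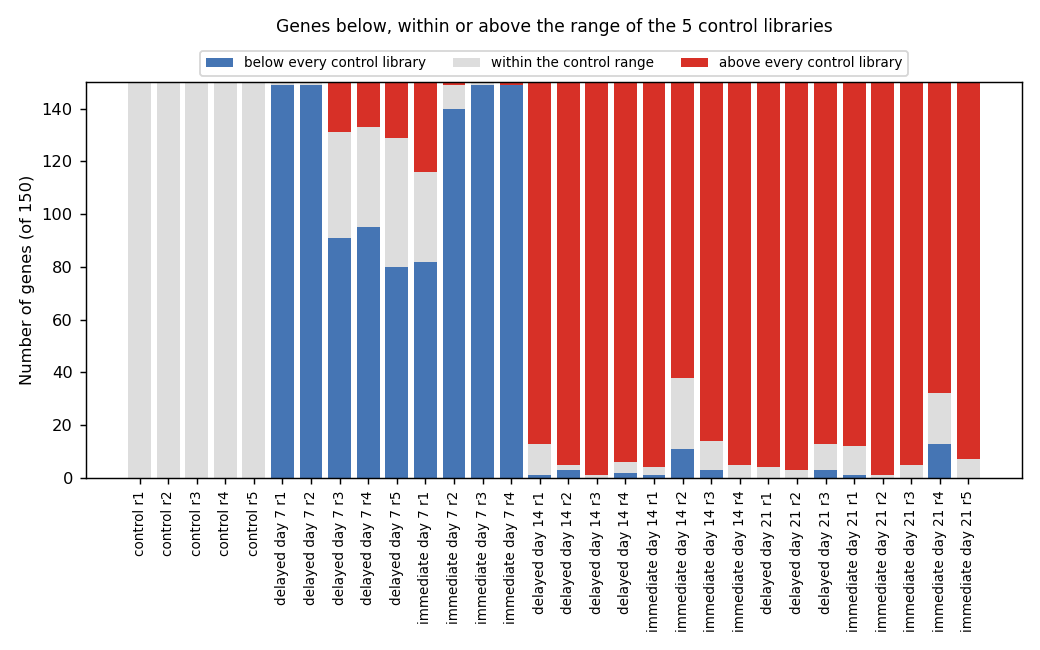
Number of the 150 genes that lay below, within or above the range of the 5 control libraries, for each library (r is the replicate number). At day 7 the number below ran from 80 to 149 (38.9% to 47.7% of all tested genes), and from day 14 on the number above ran from 112 to 149 (39.3% to 50.0% of all tested genes).

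The genes largely shared the order of the day 7 libraries. The choice used the means of these libraries, so their order is given as a description. Delayed replicates 1 and 2 were both below replicates 3, 4 and 5 in 136 of the 150 genes (90.7%), as in 25.5% of all tested genes. Delayed replicate 1 was the lowest of its group in 129 genes (86.0%), and in 41.8% of all tested genes. Immediate replicate 4 was the lowest of its group in 111 genes (74.0%), against 38.5% of all tested genes, and replicate 1 the highest in 131 (87.3%), against 34.3%. The same libraries were thus also the most often lowest or highest over all tested genes. The full immediate order, from replicate 1 down to replicate 4, was found in 87 genes (58.0%) and in 13.4% of all tested genes. The genes of a library share its tissue and preparation, so these counts describe libraries and are not replicates of a condition. The spread between day 7 libraries was accordingly large: the median standard deviation per gene was 1.49 after delayed and 1.32 after immediate repair, against 0.29 in control nerve. Over all tested genes the medians were 0.34, 0.30 and 0.19.

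The library with the lowest level in each repair also had the fewest counts and the fewest genes seen in its group. Delayed replicate 1 had 12176007 counts and 16779 genes with counts, and immediate replicate 4 had 11958242 counts and 16100 genes. The other day 7 libraries had 13533214 to 17334752 counts and 16735 to 17838 genes. The others did not all follow their level in this: immediate replicate 3 had a lower median level than immediate replicate 2 but more counts, 15505138 against 13533214, and more genes, 17260 against 16735. Of the 150 genes, 48 had 0 counts in immediate replicate 4 and 22 in delayed replicate 1, against 0 to 12 in the other day 7 libraries. The part of depth in the result was not tested; CPM is already relative to the library total. The lowest library of each repair was the same in neighbouring gene groups. The 250 genes within 0.5 of control at day 7 and above 0.75 at day 21 had their lowest day 7 medians in the same libraries, -0.36 in delayed replicate 1 and -0.26 in immediate replicate 4. So did the 2199 genes below -0.5 at day 7 and within 0.75 of control at day 21, with -1.29 and -1.23.

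At day 14 the genes already stood above control nerve. The 8 libraries of this day were not used to choose them, whereas the control libraries were. The median distance from control was 1.52 after delayed repair, with a range over genes of -0.97 to 4.16, and 1.39 after immediate repair, with a range of -0.43 to 4.29. Library medians of log2(CPM + 1) were 6.13, 6.07, 6.30 and 6.16 in delayed replicates 1 to 4, and 6.46, 5.33, 6.12 and 6.24 in immediate replicates 1 to 4, against 4.27 to 4.60 in control nerve. Every day 14 library lay above every control library in this median, with immediate replicate 2 the lowest. Immediate replicate 2 was also the lowest of its group in 110 of the 150 genes (73.3%), against 26.8% of all tested genes.

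By gene, all 4 delayed day 14 libraries were above all 5 control libraries for 133 of the 150 (88.7%), where 31.2% of all tested genes did so. All 4 immediate libraries were above them for 108 (72.0%), where the share of all tested genes was 28.9%. Both held together for 103 genes, and for 25.6% of all tested genes. In the test, 83 of the 150 genes rose against control after delayed repair (55.3%; edgeR quasi-likelihood, adjusted p under 0.05 by Benjamini-Hochberg), with none lower. Of all tested genes 26.2% rose, and 51.9% were called in either direction. After immediate repair 66 rose (44.0%) and none was lower, where 26.1% of all tested genes rose and 51.4% were called in either direction. These 2 comparisons share the control libraries. All of these rises were at least 2-fold, and 39 were at least 4-fold after each repair. The shares of all tested genes with rises of these sizes were not counted, so these 2 counts have no background beside them. Over the 150 genes the median log2 fold change was 1.51 (median SE 0.70) after delayed and 1.39 (median SE 0.69) after immediate repair, while over all tested genes the medians were -0.0007 and 0.0124.

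The number called differed with the libraries in the fit. The test estimates 1 spread per gene over all 7 groups, and these genes vary most in the day 7 libraries. A fit of the compared groups alone also differs in the genes kept, the scaling factors and the adjustment, and the part of each was not tested. With only the 2 groups compared in the fit, 144 of the 150 rose after delayed repair, where 32.8% of all genes tested did. After immediate repair 131 rose in that fit, where 30.8% of all genes did. Without immediate day 14 replicate 1, 43 rose after immediate repair, and the share of all tested genes that rose in that fit was not counted. By level in control nerve, the 50 least abundant genes (0.786 to 11.8 CPM) held 37 of the delayed and 30 of the immediate rises, and the 50 most abundant (38.1 to 5190 CPM) held 21 and 15. The shares of all tested genes called at these levels were not counted. The distance on the log2(CPM + 1) scale was nearly the same in these least and most abundant genes at day 14, with delayed medians of 1.52 and 1.52 and immediate medians of 1.42 and 1.40. That scale shrinks the distance of genes of low level, so equal distances are not equal fold changes. At day 7 the distance differed: the least abundant genes stood at -0.99 after delayed and -1.52 after immediate repair, and the most abundant at -1.91 and -2.57. On the log2(CPM + 1) scale a gene of low level cannot stand far below control, so these sets are not alike in what can be seen at day 7.

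By day 14 the group means had covered a median of 107% of their gain between days 7 and 21 after delayed repair (quartiles 99.3% and 112%) and 101% after immediate repair (quartiles 93.7% and 108%). The mean at day 14 was above that at day 21 for 109 of the 150 genes after delayed repair (72.7%), against 59.9% of all tested genes. After immediate repair this held for 79 (52.7%), against 41.2% of all tested genes, and for 70 it held in both. For 32 genes the mean was highest at day 21 in both repairs. The libraries of these days overlapped for most genes: all delayed day 14 libraries were above all delayed day 21 libraries for 16 genes, where 5.31% of all tested genes did so, and the reverse held for 1 gene, against 2.12%. After immediate repair all day 14 libraries were above all day 21 libraries for 0 of the 150, against 0.393% of all tested genes. Against day 7, all day 14 libraries were higher for 144 genes after delayed repair and 136 after immediate repair, where 18.8% and 22.0% of all tested genes did so. The rule used the day 7 and day 21 libraries, so these counts are given without a test. At day 21 itself, 134 genes after delayed repair (89.3%) and 102 after immediate repair (68.0%) had all libraries above all control libraries, where 29.3% and 26.9% of all tested genes did so.

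The rise from day 7 to day 21 was also looked for in libraries that had not chosen the genes. Such a rise does not by itself place a gene below control at day 7 and above it at day 21. In both repairs together, 184 genes met those limits. Applied to immediate and control libraries alone, the same limits kept 330 genes, which include the 150. In the delayed libraries 222 of the 330 (67.3%) rose between days 7 and 21 (edgeR, adjusted p under 0.05) and none was lower. Of all tested genes 15.1% rose, and 26.1% were called in either direction. The median log2 fold change of the 330 genes was 2.30 (median SE 0.72), against -0.02 over all tested genes, and it was positive for 322 of the 330, with a lowest value of -3.43. All 3 delayed day 21 libraries were above all 5 delayed day 7 libraries for 263 of the 330 genes (79.7%), against 17.4% of all tested genes. The count of rises was 71 when only these 2 groups were fitted, where 4.36% of all genes rose, and 140 without delayed day 21 replicate 2. Applied to delayed and control libraries alone, the limits kept 244 genes. Of these, 190 (77.9%) rose between days 7 and 21 in the immediate libraries, and 1 was lower. Of all tested genes 24.5% rose, and 43.1% were called in either direction. With only these 2 groups fitted, 147 of the 244 rose, where 18.9% of all genes did. In the fit of all groups the median log2 fold change of the 244 genes was 2.59 (median SE 0.75), against 0.07 over all tested genes, and it was positive for 227 of the 244, with a lowest value of -2.14. All 5 immediate day 21 libraries were above all 4 immediate day 7 libraries for 172 of the 244 (70.5%), against 21.8% of all tested genes.

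Delayed and immediate repair could be compared for these genes at day 14 with libraries that had no part in their choice. Anything else that differed between these 2 groups cannot be told apart from the 3-month wait. None of the 150 passed the test for a difference between delayed and immediate repair (edgeR, 4 against 4 libraries), nor did any of all tested genes (0.0%). Without adjustment, 0 of the 150 had an edgeR p under 0.05, where 244 of all 16015 tested genes did (1.52%), and DESeq2 also called 0 of the 150. The log2 fold change of delayed against immediate repair had a median of 0.10 over the genes, with a range of -1.22 to 1.42. In the fit of all groups it was measured with little precision: the 95% interval (1.96 SE) reached a median of 1.41 to either side of the estimate. For 7 of the 150 genes the whole interval was inside a 2-fold change up or down, against 61.0% of all tested genes. With only the 2 day 14 groups in the fit, 4 of the 150 had an unadjusted edgeR p under 0.05 and 0 were called. In that fit the interval reached a median of 0.61 to either side and was inside a 2-fold change for 102 of the 150 genes (68.0%), against 78.9% of the 14307 genes tested there. The factor of 1.96 makes no allowance for the few libraries in that fit, so its intervals are too narrow and the 102 may be too many. All delayed libraries were above all immediate libraries for 1 gene, where 1.1% of all tested genes were so placed, and below them for 0, where the share was 0.731%. How small a difference could be seen therefore varied with the fit.

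**Figure D4:**
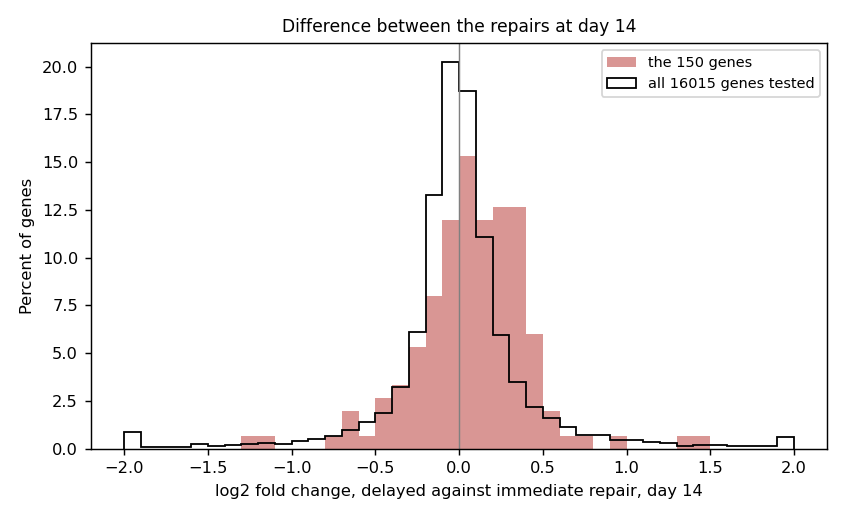
Log2 fold change of delayed against immediate repair at day 14 for the 150 genes (filled) and all 16015 tested genes (line), as percent of genes per bin of 0.1; values beyond 2 in either direction are in the end bins. The medians were 0.10 and -0.01, and no gene was called in either set.

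At the other days the repairs are set side by side without a test, since the rule used those libraries. At day 7 the group mean was higher after delayed than after immediate repair for 141 of the 150 genes (94.0%), against 55.3% of all tested genes. The median difference in log2(CPM + 1) over the 150 was 0.60, with a range of -0.34 to 2.83. For 0 of the 150 genes, however, did the 5 delayed libraries all lie above, or all below, the 4 immediate libraries, where 0.231% and 0.131% of all tested genes did so. The delayed group held 3 libraries near control level among its 5, and the immediate group 1 among its 4. At day 21 the median difference was -0.01 with a range of -1.19 to 1.27. The mean was higher after delayed repair for 72 genes (48.0%), against 33.8% of all tested genes. The summed level of the 150 genes gave the same picture of overlap. Means and SD at day 7 were 9940 ± 7900 CPM in the 5 delayed libraries and 8609 ± 11100 CPM in the 4 immediate libraries. The values for day 14 were 66620 ± 5450 CPM (4 delayed libraries) and 61460 ± 16900 CPM (4 immediate libraries), and those for day 21 were 59030 ± 8480 CPM (3 delayed libraries) and 56330 ± 8850 CPM (5 immediate libraries). Control nerve had 15830 ± 5260 CPM in its 5 libraries.

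The most abundant gene, 40th in the ranking, supplied 36.2% of that sum on average. It averaged 25400 ± 4830 CPM (SD, n = 4) at delayed day 14 and 22500 ± 5900 CPM (n = 4) at immediate day 14, against 5190 ± 3970 CPM (n = 5) in control nerve. The log2 fold changes of 2.13 (SE 0.94) and 1.95 (SE 0.94) did not pass the test (edgeR adjusted p = 0.0608 and 0.0841). Its control libraries ran from 2090 to 12100 CPM, and its day 7 libraries from 96.9 to 8740 CPM after delayed and 13.1 to 13400 CPM after immediate repair. At day 7 it thus overlapped control nerve in both repairs. The gene that stood highest at day 14, 5th in the ranking, averaged 501 ± 24.5 CPM at delayed and 564 ± 155 CPM at immediate day 14, against 29.6 ± 13.9 CPM in control nerve. Its log2 fold changes were 3.93 (SE 1.24) and 4.11 (SE 1.25), and both passed (edgeR adjusted p = 0.00974 and 0.00763). The gene that stood lowest at day 14, 134th in the ranking, was below control there after both repairs, the only one of the 150. It averaged 0.643 CPM at delayed and 1.51 CPM at immediate day 14, against 2.26 CPM in control nerve, and neither difference passed (edgeR adjusted p = 0.077 and 0.496). At day 21 it averaged 8.10 ± 6.78 CPM after delayed repair (range 0.735 to 14.1) and 12.8 ± 9.51 CPM after immediate repair (range 0.252 to 21.2). Its control libraries ran from 0.746 to 4.01 CPM, so the lowest day 21 library of each repair lay under all of them. These 3 genes were singled out after their values were seen.

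The 2 genes with the largest smaller gain, named by a rule on rank, took different paths. ENSRNOG00000019138 had 0.164, 0.412, 13.0, 11.6 and 12.8 CPM in delayed day 7 replicates 1 to 5 and 27.7, 0.887, 0.129 and 0.251 CPM in immediate day 7 replicates 1 to 4. The control libraries held 29.98, 35.9, 24.1, 32.1 and 65.0 CPM, so immediate replicate 1 alone reached their range. At day 14 it had 345, 280, 453 and 345 CPM after delayed repair and 511, 120, 260 and 238 CPM after immediate repair, each library above every control library. Its log2 fold change at day 14 was 3.09 (SE 0.95, edgeR adjusted p = 0.00825) for delayed repair against control. For immediate repair against control it was 2.78 (SE 0.94, edgeR adjusted p = 0.0157), and without immediate day 14 replicate 1 the call was lost, at 2.34 (edgeR adjusted p = 0.0509). At day 21 it held 317, 384 and 317 CPM after delayed repair and 212, 408, 247, 180 and 307 CPM after immediate repair, in the same range as at day 14. Delayed and immediate repair differed at day 14 by a log2 fold change of 0.31 (SE 0.95, or 0.39 with only these 2 groups fitted), which did not pass the test in either fit (edgeR adjusted p = 1.0).

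ENSRNOG00000014034 was lower at day 7 in every library than in any control library. It had 0.329, 1.37, 7.41, 12.6 and 13.4 CPM in delayed day 7 replicates 1 to 5 and 2.18, 0.961, 0.387 and 0.00 CPM in immediate day 7 replicates 1 to 4, against 144, 164, 166, 121 and 120 CPM in control nerve. The library listed at 0.00 CPM had 0 of 11958242 counts, which allows a level of up to 0.251 CPM (3 counts, counting error only). At day 14 it was within reach of control, with 153, 176, 361 and 210 CPM after delayed repair and 202, 117, 304 and 333 CPM after immediate repair. The log2 fold changes against control of 0.50 (SE 0.67) and 0.60 (SE 0.67) did not pass (edgeR adjusted p = 0.552 and 0.471). When only the 2 groups compared were fitted, the first of these passed, at 0.55 (edgeR adjusted p = 0.0481). At day 21 it held 477, 547 and 148 CPM after delayed repair and 489, 601, 394, 86.0 and 849 CPM after immediate repair. Delayed replicate 3 and immediate replicate 4 stayed in or under the control range at that day, and the other 6 libraries lay above it.

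**Figure D5:**
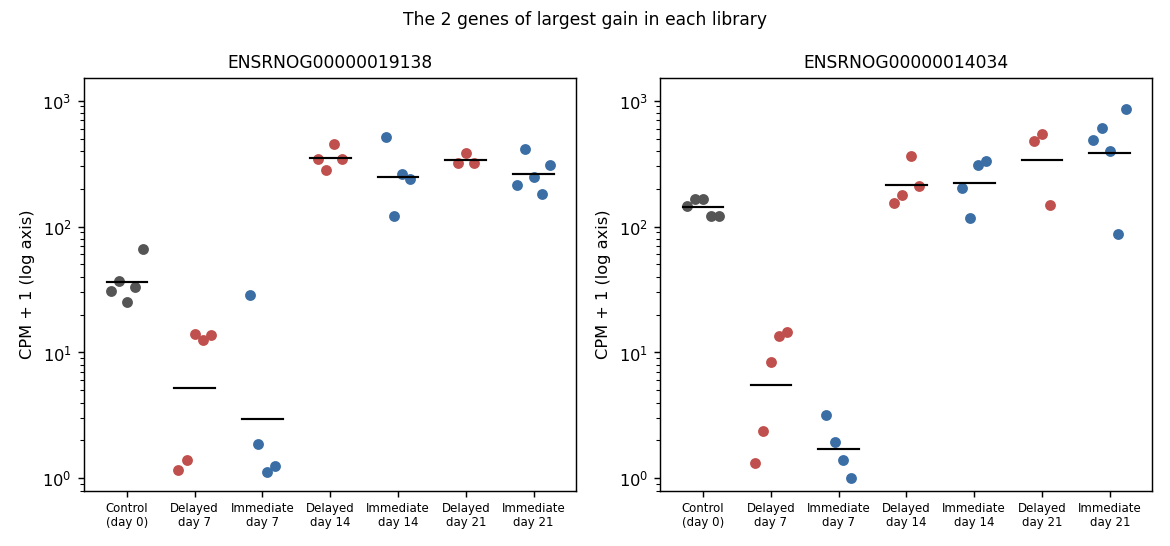
CPM + 1 on a log axis in each library for the 2 genes of largest gain, ENSRNOG00000019138 and ENSRNOG00000014034; points are libraries and bars the group mean on the log scale. At day 14 all 8 libraries of ENSRNOG00000019138 lay above the control libraries, while those of ENSRNOG00000014034 overlapped them.

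Other genes above control at day 21 were also above it at day 14. The 250 genes within 0.5 of control at day 7 and above 0.75 at day 21 had a median distance at day 14 of 1.33 after delayed and 1.29 after immediate repair, beside 1.52 and 1.39 for the 150 genes. Of the 249 of these that were tested, 221 and 217 rose against control at day 14 (edgeR, adjusted p under 0.05), at median log2 fold changes over the tested genes of 2.16 and 1.96, beside 1.51 and 1.39 for the 150. They are genes of lower level, with a median of 1.32 CPM in control nerve, which shrinks their distance on the log2(CPM + 1) scale. The 2199 genes below -0.5 at day 7 and within 0.75 of control at day 21 stood at -0.29 and -0.34 at day 14. Of the 2127 tested among these, 19 rose after delayed and 5 after immediate repair, while 783 and 777 were called lower than control. The differences between these groups of genes were not tested.

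Membership held for most of the genes when libraries were left out. Without delayed day 7 replicate 1, the library with the lowest levels in its group, 117 of the 150 still met the limits, and without immediate day 7 replicate 4 139 did. Without both, 116 did. Leaving out any other library of the 5 groups used by the rule kept between 135 and 150.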

How the data were processed

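RNA was sequenced from 30 libraries of rat median nerve. The labels' protocols describe mRNA captured with poly(T) beads from 400 ng of RNA (RIN above 6) and non-directional libraries, so reads of overlapping or antisense genes are not separable. The authors deposited raw counts per Ensembl gene, 1 column per library. The submitters' processing notes name featureCounts 1.5.0-p3, HISAT2 2.0.5 and DESeq2 1.38.3. No source used here states the genome build or how reads shared by near-identical genes were counted.

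The members and gene lists were chosen with earlier results of these data known. The rule was applied to log2(CPM + 1), with CPM from column totals. Lists of marker, pathway and motif names could not be applied, since 0 gene IDs matched a symbol; for the same reason only the 2 genes of highest rank are named. Counts were tested with edgeR 4.0.16 in R 4.3.3: filterByExpr, TMM factors, 1 quasi-likelihood fit of 7 groups with robust estimation, and Benjamini-Hochberg adjustment over 16015 genes. Standard errors came from the test statistic. The fit was tested on simulated data. No pair of replicates agreed within sampling noise (51 pairs, chi-square over degrees of freedom at least 14.9). Alternatives were DESeq2 1.42.0, relative log expression factors, no filter, a fit of the groups compared, the replicate number as a block, another scaling or pseudocount in the rule, and leaving out each library.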

Additional observations from a re-analysis of the deposited data

Results flagged for a closer look

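In 24 checks, each of 1 measure within a group of 4 or 5 libraries, 3 values stood far apart from the others. About 1 in 20 would by chance if the values were normally distributed. The checks are not independent, since ENSRNOG00000019138 is also part of the summed level. The summed level of the 150 genes was 24821 CPM in control replicate 5, where the next highest control library had 15155 CPM. ENSRNOG00000019138 was at 65.0 CPM in the same library, next to 35.9 CPM. At immediate day 7 it was at 27.7 CPM in replicate 1, next to 0.887 CPM.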

How the results depend on the processing

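The 5 tested counts stayed within 1.5 times under DESeq2, relative log expression factors, no filter, the replicate block, and other scaling or pseudocounts in the rule. The number of genes meeting the limits did so under the last 2 of these, which alone apply to it. Fitting only the groups compared moved 3 of them, to 144 (delayed day 14 against control), 131 (immediate day 14 against control) and 71 (330 genes followed in delayed libraries); the genes kept, scaling and adjustment change with that fit too. Leaving out each library gave 65 to 73 and 43 to 76 for the day 14 rises of delayed and immediate repair, 0 to 0 for delayed against immediate repair, 140 to 274 and 146 to 249 for the genes followed in delayed and immediate libraries, and 130 to 210 genes meeting the limits. The lowest of these were without immediate day 14 replicate 1 (43), delayed day 21 replicate 2 (140) and delayed day 7 replicate 1 (146 and 130). The set of followed genes changes in size when a library that chose it is left out. The 140 were of 330 genes and the 274 of 398, while the 146 were of 183 and the 249 of 315. The 146 thus came from a smaller set than the 190 of 244 in the main result. Every one of the 9 leave-outs lowered the delayed day 14 count below 83. The cause was not tested, and the shares of all tested genes called in the leave-out fits were not counted. TMM-scaled totals in the rule kept 156 genes and a pseudocount of 0.5 kept 223. Chosen without the lowest day 7 library of each repair, an alternative added after seeing the data, 127 genes met the limits, of which 65 rose at delayed and 47 at immediate day 14.

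The difference between delayed and immediate repair at day 14 changed sign for ENSRNOG00000014034, from -0.10 to 0.04 without delayed replicate 1 (0.0421) or immediate replicate 3 (0.0413) and to 0.09 without immediate replicate 4 (0.0913), within a leave-out range of -0.40 to 0.09, and passed no test. With the replicate number as a block the day 14 rises numbered 79 and 64, the followed genes 216 and 189, and the delayed against immediate differences 0. Deviations of same-numbered day 14 libraries correlated at 0.083 to 0.409 between the repairs, 3 of 4 best with their own number. Between days 7 and 21 the correlations were -0.164 to -0.106 after delayed repair (0 of 3 best) and -0.062 to 0.254 after immediate repair (2 of 4 best). Between day 14 and control they were -0.045 to 0.163 for delayed repair (1 of 4) and -0.022 to 0.144 for immediate repair (2 of 4). The labels do not say what the numbers stand for. The main fit left them out, and a batch shared by same-numbered day 14 libraries was not tested. Counts of 0 to 6 lie behind the lowest day 7 levels of the 2 named genes, so those levels are imprecise.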
